A study of Mus musculus with 12 samples.

Results

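The endoplasmic reticulum (ER) chaperone and unfolded protein response genes were described in blastocysts and in embryonic stem (ES) cells of mice with and without Dis3l, which encodes a nuclease of the RNA exosome in the cytoplasm. The 10 genes, taken by symbol from a fixed list, were Hspa5, Hsp90b1, Calr, Pdia4, Dnajb9, Sdf2l1, Herpud1, Xbp1, Creld2 and Manf. All 10 were present and tested among the 45706 genes of the blastocyst table and the 13009 genes of the ES cell table. The labels give 4 groups of 3 samples: Dis3L KO and Dis3L WT blastocysts, and Dis3L KO and Dis3L WT ES cells. No strain, sex or description of the knockout allele is given. Blastocysts came from superovulated, mated females dissected 96 h after hCG, and each library was made from 1 embryo by tagmentation of its cDNA. ES cell lines were derived from blastocysts on inactivated mouse embryonic fibroblasts and grown with serum and LIF, and their libraries were stranded and depleted of ribosomal RNA. Whether the 3 ES cell samples of a genotype are separate lines is not stated, so p-values there may measure only technical spread.

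Proteins that enter the secretory pathway fold in the ER with the help of chaperones, lectins and disulfide isomerases. When unfolded proteins build up, 3 membrane sensors respond: Ern1 (IRE1) splices Xbp1 mRNA, Atf6 is cut to release a transcription factor, and Eif2ak3 (PERK) phosphorylates the initiation factor eIF2. The first pair of arms raise ER chaperone genes, whereas eIF2 phosphorylation, which kinases outside the ER can also bring about, favours translation of Atf4 and its targets such as Chac1, Trib3 and Asns. The chaperone genes therefore mainly read the ER arms, and the Atf4 targets read eIF2 signalling from any source.

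Promoter sequences are shown because they hold short elements through which the ER arms and Atf4 are known to act. They are RefSeq promoter windows on GRCm38.p6, 250 bases before to 50 after the transcription start, written 5′ to 3′ on the gene's strand, and 9 of the 10 members had an entry. The ER stress response element (ERSE) was searched on both strands as CCAAT, 9 bases of any kind and CCACG. It was found in 4 of the 9 windows, those of Hspa5, Hsp90b1, Calr and Creld2, against 0.119% of all 32851 windows. The ERSE is not particular to the members: 4 of 23 windows of other listed ER folding genes and 2 of 15 of ER-associated degradation genes held it. It was in 0 of 10 windows of listed sensors and regulators, 0 of 18 of translocon and glycosylation genes and 0 of 8 of ER calcium genes. Capitals mark the ERSE, which reads in reverse complement in Calr, Creld2 and the copy of Hsp90b1 nearer to the start. The Hspa5 window is chr2:34771840-34772139 (plus strand), Calr is chr8:84847055-84847113 (minus), Hsp90b1 is chr10:86705513-86705676 (minus) and Creld2 is chr15:88819500-88819558 (plus).
Hspa5: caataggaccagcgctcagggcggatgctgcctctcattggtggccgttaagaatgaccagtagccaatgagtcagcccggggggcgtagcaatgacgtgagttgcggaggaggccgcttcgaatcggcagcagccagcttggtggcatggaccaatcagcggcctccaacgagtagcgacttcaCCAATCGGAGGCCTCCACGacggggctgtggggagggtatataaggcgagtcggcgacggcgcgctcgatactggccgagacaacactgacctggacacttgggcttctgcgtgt
Calr: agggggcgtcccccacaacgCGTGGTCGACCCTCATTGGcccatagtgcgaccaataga
Hsp90b1: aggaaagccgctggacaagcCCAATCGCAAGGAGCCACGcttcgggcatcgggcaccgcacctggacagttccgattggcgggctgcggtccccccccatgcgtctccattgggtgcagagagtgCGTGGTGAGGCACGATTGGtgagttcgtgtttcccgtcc
Creld2: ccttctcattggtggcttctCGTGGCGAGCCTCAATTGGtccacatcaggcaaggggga

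With the last base left free (CCAAT, 9 bases of any kind, CCAC and 1 base of any kind, a search that includes every ERSE), 6 of the 9 members matched, Pdia4 and Herpud1 being added, against 0.365% of all windows. So did 5 of 23 windows of the other ER folding genes and 4 of 15 of the degradation genes. The Pdia4 stretch, chr6:47813582-47813640 (minus strand), is shown with this looser match, in reverse complement, in capitals.
Pdia4: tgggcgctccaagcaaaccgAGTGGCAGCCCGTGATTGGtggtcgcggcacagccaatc

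Herpud1 is shown whole, chr8:94386179-94386478 (plus strand), because it held elements of both kinds. Capitals mark, from left to right, the core of the C/EBP-ATF response element (CARE) bound by Atf4, searched as TGATGNAAN, and ERSE-II, searched as ATTGG, 1 base of any kind and CCACG, all on both strands. Its looser ERSE match, nearer to the start, is left in lower case, and the CARE core reads in reverse complement in Herpud1, Chac1 and Trib3.
Herpud1: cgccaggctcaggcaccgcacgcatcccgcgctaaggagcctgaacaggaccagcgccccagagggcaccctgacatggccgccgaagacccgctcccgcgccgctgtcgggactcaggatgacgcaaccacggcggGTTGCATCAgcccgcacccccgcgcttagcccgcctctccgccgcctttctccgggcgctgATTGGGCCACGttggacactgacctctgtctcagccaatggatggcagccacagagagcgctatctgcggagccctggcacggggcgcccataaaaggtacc

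ERSE-II was found in 0.0365% of all windows, in 1 of the 9 members and in 1 of 23 windows of the other ER folding genes. The CARE core was found in 3.95% of all windows and in 1 of the 9 members. It was also in 3 of 23 windows of the other folding genes, 1 of 15 of the degradation genes and 8 of 17 windows of listed Atf4 targets. None of those 17 windows held an ERSE. The CARE core of Chac1, chr2:119351028-119351076 (plus strand), had the same letters as that of Herpud1, and those of Trib3, chr2:152344019-152344067, and Asns, chr6:7693204-7693252 (both minus strand), differed.
Chac1: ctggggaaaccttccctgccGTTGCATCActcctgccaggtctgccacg
Trib3: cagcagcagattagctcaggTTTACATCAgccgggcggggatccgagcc
Asns: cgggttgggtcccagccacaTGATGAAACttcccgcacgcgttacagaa
The element TGACGTGG, the core of the unfolded protein response element, was in 0 of the 9 member windows and in 0.676% of all windows. The windows of Xbp1, Dnajb9 and Sdf2l1 matched none of the motifs searched. A match is a string of letters and was not tested as a binding site, and the members were listed for their known part in this response.

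The values are those of the authors' deposited tables, 1 per material, which hold comparison results and no column per sample. A positive log2 fold change means a higher level on the numerator side of the comparison. Which genotype is the numerator is not stated, so sides are called numerator and denominator throughout. The means of normalised counts, each built from whole reads of fixed worth per column, allowed the reads of each count column to be recovered. The blastocyst table rested on 6 count columns, 3 per side, and the ES cell table on 4, 2 per side, although the labels list 6 ES cell samples. No column was tied to a sample or a genotype. Relative depths (size factors) were 0.695 to 1.62 in blastocysts and 0.759 to 1.25 in ES cells. Of the blastocyst column counts 96.9% were even, so these reads appear to be counted in pairs, and the reads of 2560 of 2560 genes tried had exactly 1 solution. The labels mention no molecular identifiers, so reads may repeat a molecule.

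The targeted gene had few reads in embryos and overlapped between sides. Dis3l had 26, 8 and 0 reads in the numerator columns and 10, 4 and 8 in the denominator columns of the blastocyst table, and its log2 fold change in the authors' deposited table was 0.28 with SE (standard error, log2) 1.91. In ES cells it had 14 and 8 reads against 39 and 39, and the authors' deposited table gave −0.88 with SE 0.33, adjusted p-value 0.445 (DESeq2 Wald test). All 8 trophectoderm markers and all 7 inner cell mass markers listed were present in blastocysts, with means from 82.8 to 7678, and the inner cell mass markers of ES cells had means from 285 to 1375.

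In blastocysts no difference in a chaperone or response gene passed adjustment: 0 of the 10 genes had an adjusted p-value under 0.05 (authors' DESeq2 Wald test), where 0.0986% of all tested genes did. The lowest adjusted p-value of a member was 0.533. Before adjustment 2 members had a p-value under 0.05, beside 6.21% of all tested genes: Hspa5 was negative, as were 3.53% of tested genes at that threshold, and Herpud1 positive, as were 2.68%. In the authors' deposited table, negative log2 fold changes numbered 7 of 10 and positive ones 3, with a median of −0.30, beside 51.7% negative, 48.3% positive and a median of −0.04 over all tested genes. Among the 8 members with means of at least 50 the median was −0.47, with 2 positive.

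**Figure D1:**
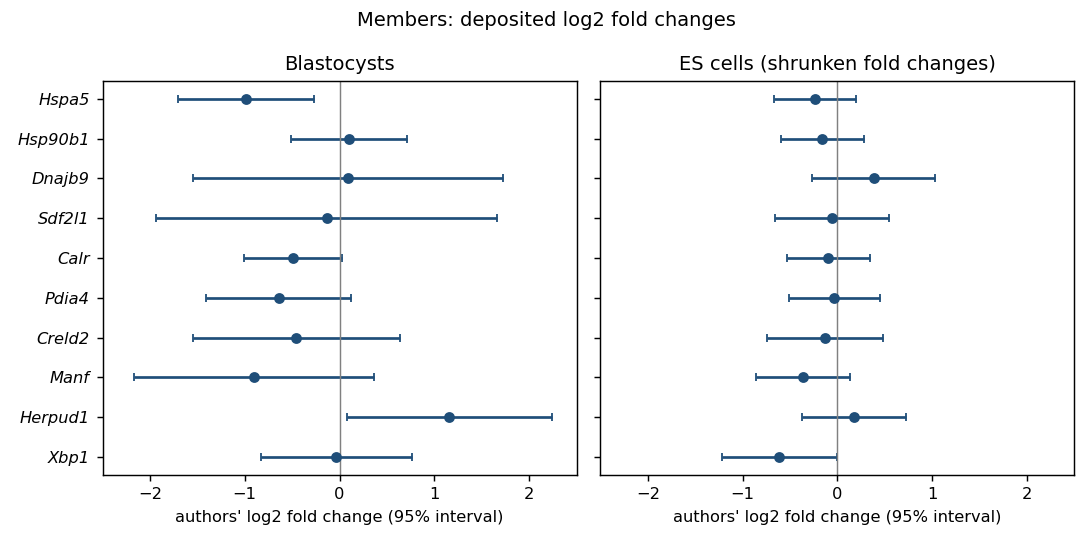
Deposited log2 fold changes of the 10 members (points) with 95% intervals (bars, from the standard errors) in blastocysts and in ES cells, where the fold changes are shrunken; the x axis is the log2 fold change, numerator over denominator. In blastocysts the intervals of Hspa5 and Herpud1 lie on opposite sides of 0, and in ES cells the interval of Xbp1 alone excludes 0.

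Hspa5 encodes BiP, the HSP70 chaperone of the ER lumen that also holds the sensors inactive. Its mean in blastocysts was 1681 normalised counts. The mean and the fold change of the authors' deposited table imply 1129 on the numerator side and 2234 on the denominator side. Its log2 fold change in the authors' deposited table was −0.99, with SE 0.36, a 95% interval from −1.70 to −0.27, an unadjusted p-value of 0.00693 and an adjusted p-value of 0.533 (DESeq2 Wald test). The numerator level was 0.505 of the other, a difference that did not pass adjustment. For Hspa5, Hsp90b1 and Calr the blastocyst means lay above the limit set for recovery. Their reads were not solved, so no value per column is given.

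Hsp90b1 encodes GRP94, the HSP90 chaperone of the ER. Its mean in blastocysts was 1166 and its log2 fold change in the authors' deposited table was 0.10, with an interval from −0.51 to 0.71. Hsp90b1, whose window holds a pair of ERSEs, thus had a value near 0 while Hspa5, which holds the same element, was negative. The difference between these genes was not tested.

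Dnajb9 (ERdj4) and Sdf2l1 are helpers of BiP, and they rested on few reads in blastocysts, with means of 40.6 and 41.6. Dnajb9 had 28.6, 28.4 and 68.6 normalised reads in the numerator columns and 39.6, 37.9 and 40.3 in the denominator columns. Sdf2l1 had 67.1, 42.6 and 9.14 against 55.7, 37.9 and 37.4. In both genes the numerator columns spanned the denominator columns, and 1 numerator column, the shallowest of its side, stood apart: it was the highest in Dnajb9 and the lowest in Sdf2l1. The log2 fold changes in the authors' deposited table were 0.09 and −0.14, with SEs 0.83 and 0.92, so a change of 2-fold in either direction lies inside both intervals.

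Calr encodes calreticulin, a calcium-binding lectin chaperone of glycoproteins, with a mean of 1642 in blastocysts. Its log2 fold change in the authors' deposited table was −0.49, with an interval from −1.01 to 0.03 and an adjusted p-value of 0.811 (DESeq2 Wald test). The implied levels were 1365 on the numerator and 1920 on the denominator side.

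Pdia4 (ERp72) is a protein disulfide isomerase. Its normalised reads were 268, 229 and 201 in the numerator columns and 479.9, 276 and 332 in the denominator columns. Each numerator column of Pdia4 was lower than each denominator column. It was the 1 of 7 members with recovered reads whose sides did not overlap, beside 12.3% of 2512 tested blastocyst genes with means from 40 to 100 (6.61% lower and 5.69% higher on the numerator side). The share of members is close to this background, but Pdia4, with a mean of 298, lies above its range, so the levels are not matched. The log2 fold change in the authors' deposited table was −0.64, with SE 0.39, adjusted p-value 0.811 (DESeq2 Wald test). With each column left out in turn, the log2 ratio of the Pdia4 reads ranged from −0.80 to −0.39, the latter without the deepest denominator column.

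Creld2 encodes an ER-resident protein with disulfide isomerase activity, and Manf encodes a small ER protein that is released under ER stress and acts as a trophic factor. Creld2 had 72.8, 126 and 185 normalised reads in the numerator columns against 218, 93.6 and 213. Manf had 48.5, 40.6 and 107 against 77.9, 114 and 176. In both genes the mean was lower on the numerator side while single columns overlapped. The log2 fold changes in the authors' deposited table were −0.45 and −0.90, with SEs 0.56 and 0.65. With each column left out in turn, the log2 ratio of the Creld2 reads ranged from −0.81 (without numerator column 3, the shallowest of its side) to −0.17 (without numerator column 1). That of Manf ranged from −1.46 (without numerator column 3) to −0.55 (without denominator column 3).

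Herpud1 encodes an ER membrane protein that serves ER-associated degradation, the route by which misfolded proteins are sent to the proteasome. Its normalised reads were 207, 282 and 386 in the numerator columns and 70.5, 244 and 77.7 in the denominator columns. Both sides overlapped through 1 denominator column at 244, and the other two lay below every numerator column. The log2 fold change in the authors' deposited table was 1.16, with SE 0.55, an unadjusted p-value of 0.0359 and an adjusted p-value of 0.769 (DESeq2 Wald test). Without that denominator column the log2 ratio of the reads was 1.98, and across all columns left out in turn it ranged from 0.86 to 1.98. Herpud1 was the 1 member window with a CARE core, and the relation of that element to its value was not tested.

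Xbp1 encodes the transcription factor made active when Ern1 splices its mRNA, a step that a count per gene does not show. Its normalised reads in blastocysts were 427, 193 and 352 against 391, 301 and 302, so the numerator columns spanned the denominator columns. The log2 fold change in the authors' deposited table was −0.03, with an interval from −0.83 to 0.76.

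**Figure D2:**
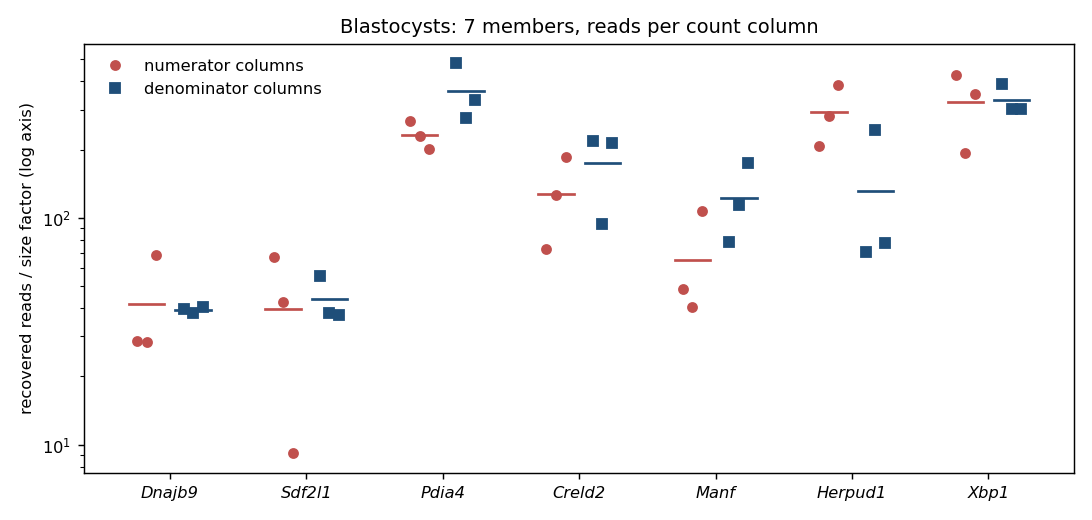
Recovered reads divided by the size factor (y axis, log scale) of the 7 members whose blastocyst reads were solved. The 3 numerator columns are circles and the 3 denominator columns squares, with side means as horizontal bars. Only Pdia4 has sides that do not overlap, and Herpud1 has 1 denominator column, at 244, among its numerator values.

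No count column was the highest, or the lowest, in all 7 genes. Summed over the 7 genes, the columns held 1119, 942 and 1310 normalised reads on the numerator side and 1332, 1105 and 1178 on the denominator side. Per gene, the highest column was 2.21 times the lowest for Xbp1 and 7.34 times for Sdf2l1, the extremes of the 7. On a scale of normalised counts per kilobase of exon, blastocyst levels ran from 15.9 for Dnajb9 to 570.3 for Calr, with Hspa5 at 398 and Hsp90b1 at 289. These levels put Calr at percentile 98.8 of tested genes, Hspa5 at 98.1, Hsp90b1 at 97.1 and Dnajb9 at 53.2.

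Most sensors and regulators had positive values in blastocysts, but 0 passed adjustment. Of 12 listed sensors and regulators 10 had a positive log2 fold change, with a median of 0.34. Over all tested genes 48.3% were positive, with a median of −0.04, and whether the list differs from them was not tested. Eif2ak3 (PERK) had 229.9, 227 and 482 normalised reads in the numerator columns and 137, 165 and 144 in the denominator columns, without overlap. Among tested blastocyst genes with means from 40 to 100, 5.69% were also higher in every numerator column, although Eif2ak3 had a higher mean, 231. The log2 fold change of Eif2ak3 in the authors' deposited table was 1.07, with SE 0.45, an unadjusted p-value of 0.0179 and an adjusted p-value of 0.667 (DESeq2 Wald test). Ern1 (54.3, 85.3 and 100.6 against 85.3, 24.5 and 97.8) and Atf6 (223, 93.4 and 126 against 194, 312 and 104) overlapped widely, with log2 fold changes of 0.21 and −0.46 in the authors' deposited table. Atf4 and Ddit3 (CHOP), the transcription factors of the eIF2 arm, had log2 fold changes 0.63 and 0.45 with SEs 0.32 and 0.71 in the authors' deposited table.

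Among the Atf4 targets 1 gene passed adjustment in blastocysts, where 0.0986% of all tested genes did. Of 17 tested targets 13 were positive, beside 48.3% of all tested genes, with a median log2 fold change of 0.59. The gene that passed was Chac1, which degrades glutathione, with 116, 249.7 and 89.1 normalised reads in the numerator columns and 2.47, 15.6 and 11.5 in the denominator columns. Its log2 fold change in the authors' deposited table was 3.99, with SE 0.80, adjusted p-value 0.00213 (DESeq2 Wald test). Trib3, a pseudokinase and feedback inhibitor of Atf4, had 124, 181 and 208 against 4.95, 261 and 0, so denominator column 2 held its highest value and the log2 fold change in the authors' deposited table was 0.95 with SE 2.04. Asns, asparagine synthetase, had 0.41 with SE 0.39. Beside Chac1, the 10 members ran from −0.99 (Hspa5) to 1.16 (Herpud1) in the authors' deposited table. Denominator column 2 was the highest of its side in 6 of 9 tested Atf4 targets with recovered reads, and the highest of all columns in 3. How often it was the highest over all genes was not counted, so whether this is particular to the targets is not known. It is also the column in which Herpud1 stood at 244, and its part in either result was not tested. These 9 are the less abundant of the tested targets, with means from 21.7 (Slc7a11) to 130 (Trib3), because reads were recovered only up to a set mean. The median log2 ratio of their reads was 0.24. It was 2.30 without denominator column 2, 0.0045 without numerator column 2 and −0.10 without denominator column 3, a check chosen after the values were seen. The more abundant targets, Asns among them, were not part of this check. For Trib3 the ratio was 0.95, and it was 6.11 without denominator column 2, when the denominator rested on 8 reads, and 0.36 without denominator column 3. Whether the Atf4 targets as a list differ from the members was not tested.

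**Figure D3:**
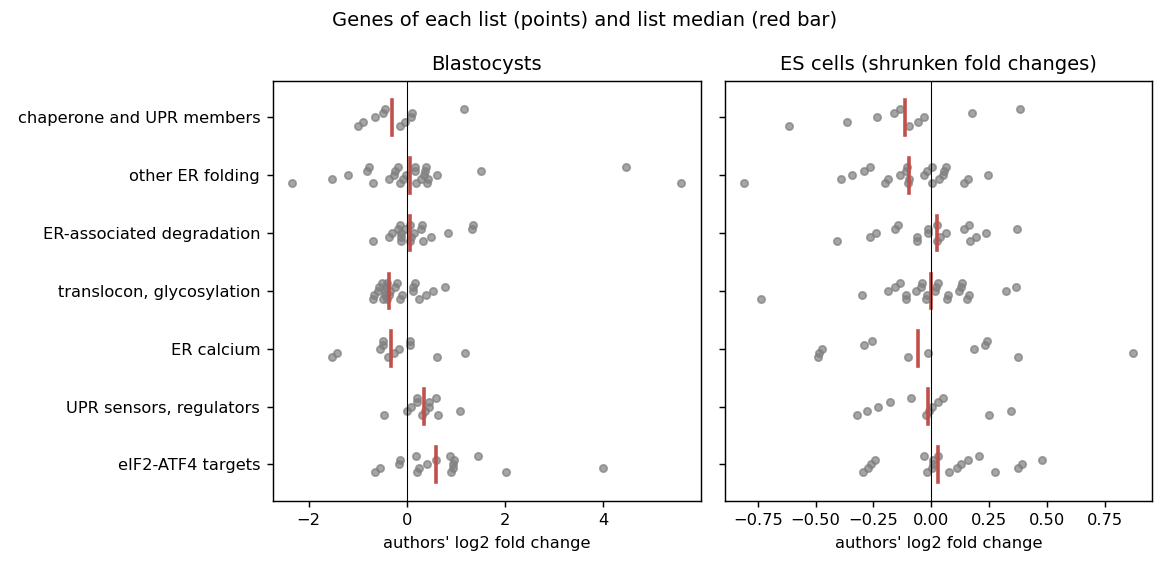
Deposited log2 fold changes (x axis, a separate scale per panel) of the tested genes of each ER or eIF2 list (points) with the list median (red bar) in blastocysts and ES cells. Among these 7 lists the blastocyst medians run from −0.36 for translocon and glycosylation genes to 0.59 for eIF2-Atf4 targets, and in ES cells, where fold changes are shrunken, from −0.12 for the members to 0.03 for eIF2-Atf4 targets.

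Other ER folding genes were mixed in blastocysts, with 13 of 26 positive beside 48.3% of all tested genes, a median of 0.07 and 0 past adjustment. The lowest Wald statistic was that of Pdia5, a disulfide isomerase, with 169.9, 108 and 64.0 normalised reads against 450.2, 176 and 359.7, without overlap. Among tested blastocyst genes with means from 40 to 100, 6.61% were also lower in every numerator column, although Pdia5 had a higher mean, 221. The log2 fold change of Pdia5 in the authors' deposited table was −1.53, with SE 0.52, adjusted p-value 0.385 (DESeq2 Wald test). The highest was that of Sil1, the nucleotide exchange factor of BiP, with 88.5, 99.5 and 146 against 75.5, 17.8 and 23.0 and a fold of 2.84 in the authors' deposited table. Pdia6, a further isomerase, had −0.77 at an unadjusted Wald p-value of 0.0328, whereas P4hb and Canx had 0.19 and 0.35 in the authors' deposited table. Of 20 genes of ER-associated degradation 11 were positive, with a median of 0.06. The ER ubiquitin ligase Rnf139 had the highest Wald statistic (1.32 with SE 0.59) and the rhomboid-like Derl1 the lowest (−0.36 with SE 0.42) in the authors' deposited table. Of 24 translocon and glycosylation genes 17 were negative, beside 51.7% of all tested genes, with a median of −0.36. The extremes were the translocating-chain protein Tram1 (0.77) and the translocon subunit Ssr4 (−0.68) in the authors' deposited table. In these 3 lists 0 genes passed adjustment, and 3, 2 and 1 had an unadjusted Wald p-value under 0.05, beside 6.21% of all tested genes.

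No marker of the embryo's lineages or of fibroblasts passed adjustment in blastocysts (0 in each of 4 lists, DESeq2 Wald test). Over all tested genes 6.21% had an unadjusted Wald p-value under 0.05 (3.53% negative and 2.68% positive). Of the 7 inner cell mass markers 3 did, each negative. The lowest Wald statistic of that list was in Tdgf1 (−1.75, adjusted p-value of 0.205, DESeq2 Wald test) and the highest in Fgf4 (0.10). Of the 8 trophectoderm markers 3 did, with Gata3 at 0.52 and Krt8 and Krt18 at −0.87 and −0.63 in the authors' deposited table. Of 7 tested primitive endoderm markers 0 did, with the highest Wald statistic in Dab2 (0.25) and the lowest in Gata6 (−0.77). Of 8 fibroblast markers 5 had a mean of 0, and the 3 tested, with 0 unadjusted p-values under 0.05, had values from −1.12 (Thy1) to −0.71 (Fn1). The part of these values in those of Hspa5 and Herpud1 was not tested. In whole embryos fewer cells of a type and less RNA per cell cannot be told apart.

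In ES cells, too, no member passed adjustment (0 of 10, authors' DESeq2 Wald test), where 0.261% of all tested genes did, and the lowest adjusted p-value of a member was 0.868. Before adjustment 1 member, Xbp1, had a p-value under 0.05, beside 5.62% of tested genes (3.42% negative, as Xbp1 was, and 2.21% positive). In the authors' deposited table, negative log2 fold changes numbered 8 of 10 and positive ones 2, with a median of −0.12, beside 50.0% negative over all tested genes. Standard errors in this table did not exceed 0.33, and its fold changes appear shrunken towards 0, so the log2 ratio of recovered reads is given for each member.

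Xbp1 had 35.9 and 40.8 normalised reads in the numerator columns (45 and 31 reads) and 72.3 and 70.5 in the denominator columns (76 and 73 reads). Both numerator columns were lower, and the log2 ratio of the reads was −0.90. The log2 fold change in the authors' deposited table was −0.61, with SE 0.31, an unadjusted p-value of 0.0473 and an adjusted p-value of 0.868 (DESeq2 Wald test). The Xbp1 ratio of the reads stayed between −0.99 and −0.81 when each column was left out in turn.

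The chaperones with the highest levels did not pass adjustment in ES cells. Hspa5 had 379 and 375 normalised reads against 432 and 477, without overlap, and a log2 ratio of −0.27. Calr had 363 and 369 against 374 and 416, also without overlap, with a log2 ratio of −0.11. Hsp90b1 had 533 and 559.7 against 527 and 716, so its sides overlapped, with a log2 ratio of −0.19. For Hspa5 the interval of the fold change in the authors' deposited table ran from −0.66 to 0.19, on the shrunken scale. Pdia4 had 191 and 246 against 226 and 221, with the denominator columns between the numerator columns and a log2 ratio of −0.03.

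Among the remaining members Manf had 152 and 157 normalised reads against 223 and 194, without overlap, with a log2 ratio of −0.44. Creld2 had 49.5 and 46.1 against 63.7 and 46.4, and its sides overlapped, with a log2 ratio of −0.20. Herpud1 had 117 and 100.1 against 86.5 and 98.6, a log2 ratio of 0.23, and Dnajb9 had 43.1 and 38.2 against 34.2 and 16.4, a log2 ratio of 0.68. The Dnajb9 ratio was 0.25 without the lower denominator column and 1.31 without the higher. In both Herpud1 and Dnajb9 each numerator column was higher than each denominator column. Sdf2l1 rested on the fewest reads, with 14 and 6 reads against 18 and 5 and a log2 ratio of −0.20, and the interval of its fold change in the authors' deposited table ran from −0.66 to 0.54. In all, 6 of 10 members had sides that did not overlap, 4 lower and 2 higher on the numerator side, beside 40.5% of 10385 tested ES cell genes (20.5% lower and 20.0% higher).

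**Figure D4:**
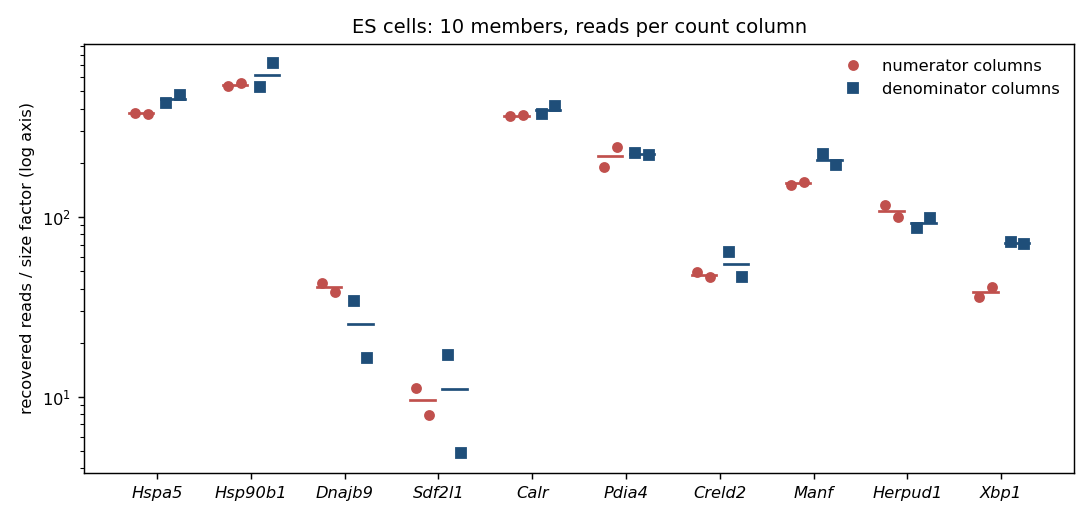
Recovered reads divided by the size factor (y axis, log scale) of the 10 members in the 2 numerator columns (circles) and 2 denominator columns (squares) of the ES cell table, with side means as bars. Xbp1 is at 35.9 and 40.8 against 72.3 and 70.5, and the abundant chaperones Hspa5, Hsp90b1 and Calr lie between 363 and 716 on both sides.

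Levels within ES cells kept Hsp90b1 (145 normalised counts per kilobase of exon), Calr (132), Hspa5 (98.3) and Pdia4 (92.2) at the top of the members, and Sdf2l1 at the bottom with 9.26. In ES cells Hsp90b1 was at percentile 96.7 of tested genes and Sdf2l1 at 36.4. Neither table states its numerator, so the numerators may be opposite genotypes and signs were not compared between materials. Whether a member's difference changed between materials was not tested.

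The medians of the regulators and Atf4 targets were near 0 in ES cells, on the shrunken scale. Over all tested ES cell genes 50.0% were positive and 5.62% had an unadjusted Wald p-value under 0.05. Of 12 sensors and regulators 5 were positive, with a median of −0.02 and 0 unadjusted p-values under 0.05, the extremes by Wald statistic being the transcription factor Creb3 (0.34) and the Atf6-cutting protease Mbtps1 (−0.32) in the authors' deposited table. Eif2ak3, Ern1, Atf6, Atf4 and Ddit3 had 0.0039, −0.18, −0.0079, −0.02 and 0.03 there. Of 19 Atf4 targets 13 were positive, with a median of 0.03 and 0 unadjusted p-values under 0.05. Chac1 had 127 and 89.5 normalised reads against 128 and 87.9, and Trib3 had 180.4 and 162 against 178 and 121. Asns had a log2 fold change of 0.0060, and the extremes of the list were the cystine transporter Slc7a11 (0.48) and Sesn2 (−0.27) in the authors' deposited table. Of 23 other folding genes 9 were positive, with a median of −0.10 and the extremes Dnajb11 (0.25) and Prdx4 (−0.81). Of 19 degradation genes 10 were positive, with a median of 0.03 and the highest Wald statistic in Syvn1 (0.37), and of 24 translocon genes 12 were, with a median of −0.00037 and the extremes Ssr1 (0.37) and Ssr4 (−0.73). Prdx4, an ER peroxidase (35.9 and 56.6 normalised reads against 91.3 and 111), and Ssr4 (49.5 and 55.3 against 110.3 and 98.6) had unadjusted Wald p-values of 0.0073 and 0.0121. Both genes lie on chromosome X, as does the regulator Mbtps2, which had 0.25 in the authors' deposited table. A relation of these values to the chromosome was not tested.

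Lineage and fibroblast markers were also measured in ES cells. The 8 fibroblast markers, which the feeder layer could supply, were all present with means from 19.7 to 1105. The highest were Fn1 (1105) and Vim (542), which blastocysts also held, with means of 912 and 68.9. The 5 markers with a mean of 0 in blastocysts had means from 19.7 to 259 in ES cells. Of the 8 markers 6 were negative in the authors' deposited table, with the lowest Wald statistic in Col1a1 (−0.92) and the highest in Vim (0.17). Col1a1 had 14.4 and 15.8 normalised reads against 27.6 and 77.3, so 1 denominator column held the most. Of 4 tested trophectoderm markers the Wald statistic was highest in Tfap2c (0.91) and lowest in Krt8 (−0.59), of 5 primitive endoderm markers highest in Lama1 (0.22) and lowest in Col4a1 (−0.77), and of 7 inner cell mass markers highest in Fgf4 (0.02) and lowest in Pou5f1 (−0.42), in the authors' deposited table. None of these markers passed adjustment (0 in each list, DESeq2 Wald test), with 2, 1, 1 and 0 unadjusted p-values under 0.05 in the fibroblast, trophectoderm, primitive endoderm and inner cell mass lists. Over all tested ES cell genes 5.62% had such a p-value. The part of these markers in the members' values was not tested.

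By position (coordinates of the blastocyst table, GRCm38), the protein-coding members are spread over 9 chromosomes. Hspa5 (ENSMUSG00000026864) lies on chromosome 2 from 34771970 to 34777547, Herpud1 (ENSMUSG00000031770) on chromosome 8 from 94386438 to 94395377 and Xbp1 (ENSMUSG00000020484) on chromosome 11 from 5520659 to 5525893. Hsp90b1 lies on chromosome 10 (86690209 to 86705509), Calr on chromosome 8 (84841850 to 84846934), Pdia4 on chromosome 6 (47796142 to 47813512) and Dnajb9 on chromosome 12 (44205897 to 44210068). Sdf2l1 lies on chromosome 16 (17130138 to 17132383), Creld2 on chromosome 15 (88819646 to 88826681) and Manf on chromosome 9 (106838312 to 106891979). Exons of Hsp90b1 share 415 bases with the opposite-strand gene 1810014B01Rik, 10.3% of the exon length of Hsp90b1, and exons of Manf share 4.71% with 4930524O07Rik and 4.14% with Dcaf1, both on the opposite strand. Whether the blastocyst counting used strand is not given in the sources used here, so reads of those stretches may be shared.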

How the data were processed

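RNA-seq of 12 samples was deposited as 2 tables of the authors' comparisons, 1 for blastocysts and 1 for ES cells. The submitters' processing notes name STAR 2.4.0b, featureCounts from Subread 2.0.1, DESeq2 1.34.0, SAMtools, bedtools and GRCm38, with no order or role. Per the file headers, the deposited signal is a mean of normalised counts per gene. The deposited log2 fold change, its standard error (log2) and the Wald score were made by the authors, as were the deposited p-value and adjusted p-value. No paper, label or header states the direction of the comparison. The tables hold no counts per sample, so the authors' own Wald test stands in place of a count test, with adjusted p-values under 0.05 called. Genes listed numbered 45706 and 13009, of which 15209 and 10739 had an adjusted p-value.

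Whole reads per count column were recovered from the means (Python 3.11.15, numpy 2.4.6, numba 0.67.0), each column being divided by its size factor. A blastocyst solution was kept if a refit gave back the deposited log2 fold change within 0.0001. Recovery was tested on simulated data. For blastocysts the simulated levels were drawn from 40 to 100, and the test asked only whether the true reads were among the exact sums. It did not test the refit or whether 1 solution remained. Creld2, Herpud1, Pdia4 and Xbp1, with higher means, lay outside that range. Columns were not assigned to samples, and no p-value was computed from them. Intervals are 95% normal intervals from the deposited standard errors. Levels per kilobase used merged exons of GENCODE M21. The members and lists were chosen with earlier results of these data known. Named genes were the members, Dis3l, known regulators and Atf4 targets, genes past the threshold, and the highest and lowest Wald statistic of each list. For 1 list in ES cells, a gene this rule names is not reported here. Genes outside this rule that were chosen after their values were seen are Pdia6, P4hb, Canx, Krt18 and Mbtps2.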

Additional observations from a re-analysis of the deposited data

How the results depend on the processing

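Under every alternative run (a stricter threshold, adjustment over every gene with a p-value, means of at least 50, and Wald statistics rescaled to a robust SD of 1) 0 members were called in either table. With means of at least 50, 1 of 8 members was positive in ES cells, because Dnajb9 left the list. In blastocysts 2 of 8 were positive then, and the median moved from −0.30 to −0.47. Centring on the table's median turned the blastocyst log2 fold change of Xbp1 to 0.0052. Leaving out each count column in turn moved the log2 ratio of the reads across 0 in blastocysts for Dnajb9 (−0.46 to 0.31), Sdf2l1 (−0.75 to 0.33) and Xbp1 (−0.28 to 0.23). In ES cells it did so for Hsp90b1 (−0.39 to 0.053), Pdia4 (−0.23 to 0.14), Sdf2l1 (−0.84 to 0.98) and Creld2 (−0.41 to 0.043). In an alternative added after seeing the data, the same was done for the 9 less abundant tested Atf4 targets with recovered reads in blastocysts. Their median ratio ranged from −0.10 to 2.30, that of Trib3 from 0.36 to 6.11, and positive genes from 4 to 7. The other 4 blastocyst and 6 ES cell members with reads kept their sign. No paired analysis was possible because the tables hold no values per sample and the count columns carry no replicate numbers. Count models on samples were not run for the same reason. Few reads limit Dnajb9 and Sdf2l1, and shrinkage limits the ES cell fold changes.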

Other observations

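Genes of ER calcium handling, which supply the ion that BiP and calreticulin need, were mixed. In blastocysts 4 of 12 were positive, beside 48.3% of all tested genes, with a median log2 fold change of −0.32. Of these 12 genes 0 passed adjustment (DESeq2 Wald test) and 2 had an unadjusted p-value under 0.05, beside 6.21% of all tested genes. The highest Wald statistic was that of the IP3 receptor Itpr1 (1.19) and the lowest that of the calcium-binding Rcn2 (−1.43) in the authors' deposited table. In ES cells 5 of 12 were positive, beside 50.0% of all tested genes, with a median of −0.06. Again 0 passed adjustment, and 2 had an unadjusted Wald p-value under 0.05, beside 5.62% of all tested genes. Itpr1 had 217 and 246 normalised reads in the numerator columns and 127 and 92.8 in the denominator columns of ES cells, without overlap. Its numerator columns were both higher, as in 20.0% of tested ES cell genes. Its log2 fold change in the authors' deposited table was 0.87, with SE 0.26, adjusted p-value 0.125 (DESeq2 Wald test). The ER calcium pump Atp2a2 was lowest with −0.49, at 365 and 292 against 409.8 and 573 normalised reads.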
